A study of Homo sapiens with 24 samples.

Results

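The miR-193 and miR-365 clusters are paired microRNA genes on human chromosomes 16 and 17, and 5 mature miRNAs made from them were followed by name, namely hsa-miR-193a-3p, hsa-miR-193a-5p, hsa-miR-193b-3p, hsa-miR-193b-5p and hsa-miR-365a-3p (written without hsa from here on). They are 5 of the 2656 mature miRNAs in the deposited table, and 4 of the 5 passed a filter of 1 CPM (counts scaled to a common library size, the usual unit for miRNA levels) or more in 4 or more libraries, which left 905 miRNAs for testing. The fifth, miR-193a-3p, was nearly without counts. The 24 small RNA libraries came from OV90 cells, an established ovarian carcinoma line, and fell into 6 groups of 4. Cells carried a doxycycline-inducible shRNA that was a negative control (shNeg) or was directed at RELA (shRELA) or RELB (shRELB), the NF-κB subunits of the classical and the alternative pathway. All 6 groups, controls included, received doxycycline at 1 µg/ml for 72 h. Adherent cells grew in RPMI medium with tetracycline-free fetal calf serum, and spheroids grew in ultra-low attachment ware in DMEM-F12 with serum replacement, insulin-transferrin-selenium, bovine serum albumin, EGF and FGF, a culture used to enrich tumor-initiating cells. Attachment and medium therefore changed together and cannot be told apart. The labels give the shNeg libraries as wild type while their titles give Neg. Small RNA libraries do not read RELA or RELB mRNA, so the knockdown itself was not checked here. Everything rests on 1 cell line, and the sources used here do not say whether the 4 replicates were separate cultures, so the p-values measure the spread between these libraries, which may be technical.

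A miRNA gene is transcribed as a longer RNA that folds into a hairpin, and the excised duplex can give a mature miRNA from its 5′ arm (5p) and another from its 3′ arm (3p). The arm that is loaded into an Argonaute protein is kept and finds its target mRNAs mainly through its seed, bases 2 to 8, while the other arm is mostly degraded. miR-193b and miR-365a lie in 1 host RNA, and miR-193a and miR-365b are their copies on chromosome 17. In epithelial tumors the 3p arms of miR-193a and miR-193b are best known as growth-restraining miRNAs with targets such as cyclin D1 (CCND1), MCL1 and the urokinase gene PLAU. miR-365 is also known to target CCND1, and miR-193a-5p is known to target the p53 relative TP73.

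The mature sequences are shown because they decide which members can share targets and which can share reads. They are RefSeq records on GRCh38.p14, written 5′ to 3′ with the seed in capitals, and all 5 members matched.
miR-193a-5p: uGGGUCUUugcgggcgagauga
miR-193b-5p: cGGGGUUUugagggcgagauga
miR-193a-3p: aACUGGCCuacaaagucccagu
miR-193b-3p: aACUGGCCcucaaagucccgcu
miR-365a-3p: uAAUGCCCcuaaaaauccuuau
miR-365b-3p: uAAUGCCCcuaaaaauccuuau

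miR-193a-3p and miR-193b-3p had the same seed, ACUGGCC, and were identical at 18 of 22 bases. Counted from the 5′ end, with the miR-193a base first, they differed by U9C, A10U, A20G and G21C. The 5p arms were also identical at 18 of 22 bases, but 2 of their differences fell in the seed, so miR-193a-5p (GGGUCUU) and miR-193b-5p (GGGGUUU) had different seeds. Their substitutions were U1C, U5G, C6U and C11A. miR-365a-3p and miR-365b-3p were identical over all 22 bases and had the same counts in every library, so the level given for miR-365a-3p belongs to both genes and cannot be divided between chromosomes 16 and 17. Among the 2370 mature human miRNAs in the RefSeq table, no other miRNA had the seed of any member. miR-193a-5p, miR-193b-5p and miR-193b-3p each had a GC content of 59.1%, against 31.8% for miR-365a-3p.

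The MIR193B hairpin is shown because both of its arms were abundant enough to be compared, with the 5p and 3p arms in capitals.
MIR193B: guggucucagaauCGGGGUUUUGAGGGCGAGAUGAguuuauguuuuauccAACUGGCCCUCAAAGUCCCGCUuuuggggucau

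MIR193B occupies chr16:14303967-14304049 on the plus strand of GRCh38.p14, with miR-193b-5p at chr16:14303980-14304001 and miR-193b-3p at chr16:14304017-14304038. MIR365A occupies chr16:14309285-14309371, 5235 bases downstream, with miR-365a-3p at chr16:14309340-14309361. In the GENCODE annotation both hairpins lie in an intron of the long noncoding RNA gene MIR193BHG, their host gene. MIR193A occupies chr17:31559996-31560083 on the plus strand, with miR-193a-5p at chr17:31560016-31560037 and miR-193a-3p at chr17:31560050-31560071, and no other annotated gene was found to contain it. MIR365B lies 15327 bases further on at chr17:31575411-31575521, in an exon of the long noncoding RNA gene MIR365BHG. The κB consensus, the motif bound by NF-κB dimers, was searched on both strands of the RefSeq promoter windows of MIR193BHG and MIR365BHG and had 0 matches in either, while 11.3% of 35116 promoters of that length had a match. This says only that those letters are not in these windows.

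Library totals ran from 3797175 to 8283549 estimated counts in adherent culture and from 959141 to 3580931 in spheroid culture, so that 3 counts were worth 0.495 to 0.800 CPM in adherent and 0.860 to 2.29 CPM in spheroid libraries. Spheroid shNeg replicate 1 stood apart with counts for 432 miRNAs, while the 3 remaining spheroid shNeg libraries had counts for 813 to 885. Of 7 epithelial markers, miR-200c-3p and miR-205-5p were abundant, miR-429 and miR-203a-3p were at most 4.78 CPM in any group mean, and the summed level ranged from 2486 to 16336 CPM over the 24 libraries. Markers of other cells were also read. The endothelial miR-126-3p ran from 538 to 8826 CPM and the liver miRNA miR-122-5p, which is also found in serum, from 13732 to 29400 CPM. The 4 leukocyte markers summed to 4.14 to 50.9 CPM, the smooth muscle and fibroblast miR-143-3p and miR-145-5p to 12.6 to 256 CPM, and the 3 skeletal muscle markers to 0 to 8.40 CPM. The 3 erythroid markers summed to 415 to 707 CPM in spheroid shNeg, 63.6 to 98.4 CPM in spheroid shRELA, 136 to 214 CPM in spheroid shRELB and 19.7 to 45.3 CPM in adherent libraries. Nearly all of that was miR-486-5p, while miR-144-3p had no count in any spheroid library and miR-451a averaged at most 1.10 CPM in a spheroid group.

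The 4 tested members were each present in all 24 libraries but did not all move together. The 5p arms of miR-193a and miR-193b rose in spheroids and miR-365a-3p fell, whichever shRNA the cells carried. Levels are CPM scaled by TMM (trimmed mean of M-values), which corrects for library composition, and are given for replicates 1 to 4 in that order.

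miR-193a-5p was lowest in adherent shNeg cells, at 3.65, 1.33, 2.69 and 2.75 CPM. Adherent shRELA libraries gave 3.47, 3.63, 5.71 and 3.14 CPM, which overlapped the controls. Adherent shRELB libraries gave 10.0, 10.1, 10.3 and 11.9 CPM, all above every other adherent library. In spheroids the shNeg libraries gave 11.0, 38.2, 34.4 and 26.0 CPM, where replicate 1 fell well under the other 3. Spheroid shRELA libraries gave 14.5, 11.0, 9.40 and 11.0 CPM, within which the low control replicate lies. Spheroid shRELB libraries were highest, at 66.9, 46.5, 34.9 and 74.3 CPM, with replicate 3 inside the control range. The group means ran from 2.61 ± 0.954 (SD, n = 4) CPM in adherent shNeg to 55.7 ± 18.2 (SD, n = 4) CPM in spheroid shRELB cells. Each neighbouring pair in the order of the 6 means overlapped, except adherent shRELB and adherent shRELA.

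The other arm of this hairpin, miR-193a-3p, had 3 counts in all. Of these, 2 were in adherent shNeg replicate 2 (0.533 CPM) and 1 was in adherent shRELA replicate 4 (0.165 CPM), with 0 in the other 22 libraries. A count of 0 allows up to 3 counts, or the CPM limits given above, and covers counting error only. Over all libraries the 3p arm made up 3 of 1244 counts of both arms, or 0.241% (95% Wilson interval 0.0820 to 0.707%). No change of miR-193a-3p was detectable at this depth, and the ACUGGCC seed was read almost wholly through miR-193b-3p.

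miR-193b-5p gave 1.82, 1.33, 1.79 and 1.20 CPM in adherent shNeg cells. The adherent shRELA libraries gave 2.48, 1.53, 4.57 and 1.32 CPM. The adherent shRELB libraries gave 4.18, 7.48, 6.34 and 7.85 CPM and lay above all controls. Spheroid shNeg libraries were far higher and close together, at 55.0, 64.9, 55.9 and 48.4 CPM. Spheroid shRELA libraries gave 23.0, 17.3, 17.9 and 13.3 CPM, all under every spheroid control. Spheroid shRELB libraries gave 48.0, 47.9, 31.6 and 53.9 CPM, overlapping the controls. Group means were 1.54 ± 0.317 (SD, n = 4) CPM in adherent shNeg and 56.1 ± 6.78 (SD, n = 4) CPM in spheroid shNeg cells, the lowest and highest of the 6. The 3 spheroid groups lay above the 3 adherent groups without overlap.

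miR-193b-3p, the arm with the cyclin D1 seed, gave 25.2, 30.4, 23.7 and 22.9 CPM in adherent shNeg cells. Adherent shRELA libraries gave 18.8, 13.9, 32.2 and 20.2 CPM, spread on both sides of the controls. Adherent shRELB libraries gave 48.5, 68.1, 52.8 and 54.8 CPM, all above the other adherent groups. Spheroid shNeg libraries gave 37.4, 64.9, 43.1 and 57.5 CPM, overlapping adherent shRELB. Spheroid shRELA libraries gave 71.2, 37.8, 54.2 and 84.7 CPM and overlapped the spheroid controls. Spheroid shRELB libraries gave 83.8, 81.5, 90.7 and 66.5 CPM, each above all 4 spheroid controls. In the order of group means, the upper 4 groups overlapped from one to the next, from 80.6 ± 10.2 (SD, n = 4) CPM in spheroid shRELB to 50.7 ± 12.7 (SD, n = 4) CPM in spheroid shNeg. Adherent shNeg at 25.5 ± 3.39 (SD, n = 4) CPM and adherent shRELA at 21.3 ± 7.75 (SD, n = 4) CPM lay under them and overlapped each other.

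miR-365a-3p ran the other way. Adherent shNeg libraries gave 84.2, 112, 79.8 and 69.1 CPM. Adherent shRELA libraries gave 60.6, 54.0, 58.8 and 80.7 CPM. Adherent shRELB libraries gave 110.1, 108, 77.9 and 80.1 CPM, and the 3 adherent groups overlapped in order. Spheroid shNeg libraries gave 12.5, 13.7, 41.6 and 29.5 CPM, with 2 low and 2 higher libraries. Spheroid shRELA libraries gave 39.4, 22.6, 23.7 and 19.0 CPM. Spheroid shRELB libraries gave 29.0, 38.2, 41.4 and 45.9 CPM, and every spheroid library was under every adherent library. The means ran from 94.0 ± 17.3 (SD, n = 4) CPM in adherent shRELB to 24.3 ± 13.9 (SD, n = 4) CPM in spheroid shNeg cells.

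**Figure D1:**
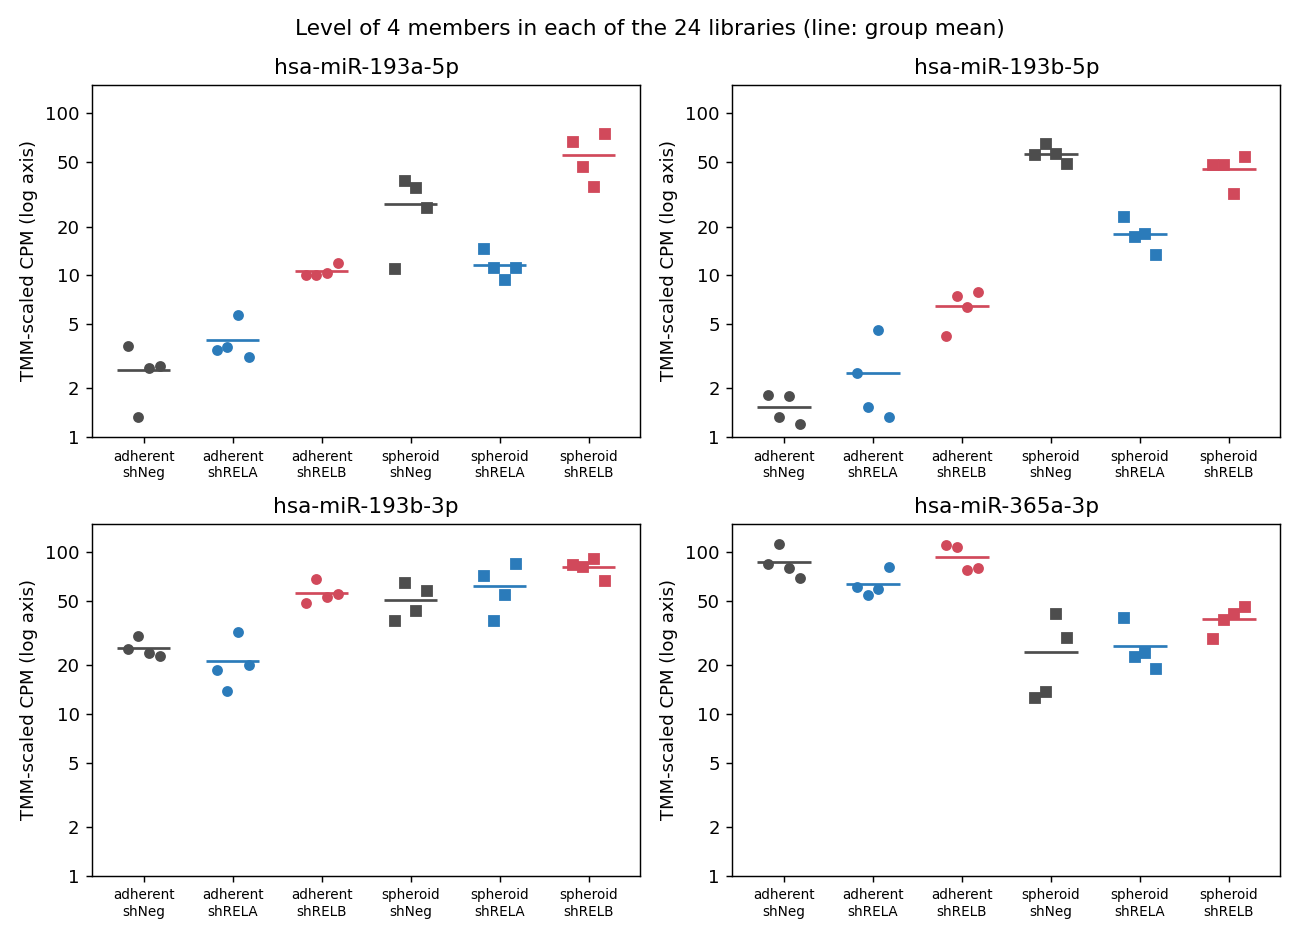
Level of the 4 tested members in each of the 24 libraries (TMM-scaled CPM, log axis), in 6 groups of 4 with circles for adherent and squares for spheroid libraries and a line at each group mean. Both 5p arms have higher means in spheroid than in adherent cells with the same shRNA, miR-193b-5p is lower in spheroid shRELA than in the other 2 spheroid groups, and miR-365a-3p is lower in every spheroid library than in any adherent one.

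Differences were tested with edgeR's quasi-likelihood test across all 905 miRNAs, with Benjamini-Hochberg false discovery rates (FDR), and a miRNA was called differentially expressed at an FDR below 0.01 and a fold change above 2. Comparisons that use the same control libraries are not independent of each other. In adherent cells RELA knockdown called none of the 4 members, where 3.76% of all tested miRNAs were called. miR-193a-5p differed by 0.57 on the log2 scale (FDR 0.468) and miR-193b-5p by 0.65 (FDR 0.401). miR-193b-3p had a log2 fold change of -0.26 and miR-365a-3p of -0.44, also short of the threshold. The median of the 4 members was 0.15, against 0.09 for all miRNAs tested. Although no member was called, 4 of the 7 marker lists were lower in shRELA without overlap. They were the epithelial, erythroid, leukocyte and smooth muscle and fibroblast sums.

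RELB knockdown in adherent cells up-regulated 3 of the 4 tested members, where 7.07% of all tested miRNAs were called. miR-193b-5p rose 4.08-fold (log2 fold change 2.03, SE 0.36, FDR 8.25e-05) and miR-193a-5p 3.92-fold (log2 fold change 1.97, SE 0.36, FDR 9.52e-05). miR-193b-3p rose 2.20-fold (log2 fold change 1.13, SE 0.26, FDR 0.00187). On leaving out single libraries the last value stayed near that size but no longer met the FDR threshold, at 1.10 (FDR 0.0103) without adherent shNeg replicate 3, 1.09 (FDR 0.0107) without adherent shNeg replicate 4 and 1.03 (FDR 0.0119) without adherent shRELB replicate 2. miR-365a-3p had a log2 fold change of 0.12 (SE 0.28, FDR 0.850). Its reads cannot be told from those of miR-365b-3p, so this value does not belong to the miR-193b host RNA alone. The median log2 fold change of the 4 members was 1.55, against 0.04 for all miRNAs tested. Of the 7 marker lists, 4 moved without overlap in the same comparison. The epithelial sum was 7799 to 9638 CPM in adherent shRELB against 4853 to 5073 CPM in adherent shNeg libraries, and the skeletal muscle sum was 2.06 to 4.85 against 0.663 to 1.55 CPM. The epithelial markers did not move as one. miR-200c-3p averaged 7920 against 3170 CPM, while miR-205-5p averaged 670 against 1622 CPM. miR-126-3p was lower, at 2093 to 2404 against 6263 to 7357 CPM, as was the smooth muscle and fibroblast sum, at 172 to 192 against 225 to 256 CPM. Their part in the result was not tested.

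RELA knockdown in spheroids down-regulated both 5p arms and called neither 3p arm, where 15.1% of all tested miRNAs were called. miR-193b-5p was 3.14-fold lower (log2 fold change -1.65, SE 0.31, FDR 8.94e-05), and its call was kept when any 1 library was left out. miR-193a-5p was 2.39-fold lower (log2 fold change -1.26, SE 0.34, FDR 0.00562), but the groups overlapped at control replicate 1. That call was lost on leaving out spheroid shNeg replicate 2 (FDR 0.0281) or replicate 3 (FDR 0.0167), or spheroid shRELA replicate 2 (FDR 0.0161), 3 (FDR 0.0201) or 4 (FDR 0.0164). It was also lost with limma (FDR 0.0149), with a replicate block (FDR 0.0112) and with only the 2 groups fitted (FDR 0.0782). miR-193b-3p had a log2 fold change of 0.30 (FDR 0.429) and miR-365a-3p of 0.08 (FDR 0.881), and the sign of each depended on the scaling. The median of the 4 members was -0.59, against 0.09 for all miRNAs tested. Of the 7 marker lists, 4 also moved without overlap. In spheroid shRELA against shNeg libraries the erythroid sum was lower (63.6 to 98.4 against 415 to 707 CPM), as were the smooth muscle and fibroblast sum (12.6 to 23.6 against 53.3 to 66.7 CPM) and miR-122-5p (14283 to 15971 against 16380 to 23896 CPM). miR-126-3p was higher (1144 to 1667 against 696 to 856 CPM), and the part of these markers in the 5p result was not tested.

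RELB knockdown in spheroids called none of the 4 members, where 13.4% of all tested miRNAs were called. miR-193a-5p came nearest (log2 fold change 1.02, SE 0.32, FDR 0.0173), and without spheroid shRELB replicate 3 it passed at a log2 fold change of 1.29 and an FDR of 0.00571. With single libraries left out it ran from 0.77 to 1.29, and with library totals in place of TMM it was 0.71. miR-193b-3p had a log2 fold change of 0.67 (FDR 0.0586), although its 2 groups did not overlap. miR-193b-5p had a log2 fold change of -0.30 (FDR 0.457) and miR-365a-3p of 0.65 (FDR 0.115). The median of the 4 members was 0.66, against 0.16 for all miRNAs tested. Although no member was called, 2 of the 7 marker lists were higher in shRELB without overlap and 1 was lower. The epithelial and the smooth muscle and fibroblast sums were higher and the erythroid sum was lower. Within the epithelial sum miR-200c-3p averaged 11730 against 2034 CPM, and miR-205-5p averaged 497 against 1973 CPM.

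Spheroid against adherent culture gave the largest changes. In shNeg cells miR-193b-5p was 35.4-fold higher in spheroids (log2 fold change 5.15, SE 0.37, FDR 1.12e-13) and miR-193a-5p 10.2-fold higher (log2 fold change 3.35, SE 0.37, FDR 2.20e-09). Both folds rest on few adherent shNeg counts, 5 to 11 per library for miR-193b-5p and 5 to 22 for miR-193a-5p. From limma to library totals without TMM, the log2 fold change ran from 4.49 to 5.59 for miR-193b-5p and from 2.89 to 3.82 for miR-193a-5p. miR-365a-3p was 3.48-fold lower (log2 fold change -1.80, SE 0.30, FDR 5.15e-06). Here 42.2% of all tested miRNAs were called, so 3 of 4 members called is to be read against a high background. miR-193b-3p had a log2 fold change of 0.99 (SE 0.27, FDR 0.00205), just short of the fold threshold, and it passed at 1.11 without spheroid shNeg replicate 1. Of the 7 marker lists, 5 moved without overlap. The erythroid sum was higher in spheroid than in adherent shNeg libraries (415 to 707 against 34.4 to 43.2 CPM), as was the leukocyte sum (16.8 to 22.1 against 8.80 to 13.9 CPM). Within the erythroid sum only miR-486-5p averaged higher (508 against 34.5 CPM). miR-451a (1.10 against 4.47 CPM) and miR-144-3p (0 against 0.353 CPM) averaged lower. miR-126-3p was lower (696 to 856 against 6263 to 7357 CPM), as were the smooth muscle and fibroblast sum (53.3 to 66.7 against 225 to 256 CPM) and the epithelial sum (3238 to 4630 against 4853 to 5073 CPM). Within the epithelial sum miR-200c-3p averaged 2034 against 3170 CPM, but miR-205-5p (1973 against 1622 CPM) and miR-203a-3p (4.78 against 0.431 CPM) were higher. The part of these markers in the members' changes was not tested.

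In shRELA cells all 4 tested members changed between the cultures, where 32.6% of all tested miRNAs did. miR-193b-5p was 7.17-fold higher in spheroids (FDR 3.32e-08), miR-193b-3p 2.92-fold higher (FDR 1.50e-05) and miR-193a-5p 2.87-fold higher (FDR 7.35e-04). miR-365a-3p was 2.43-fold lower (FDR 5.38e-04). In shRELB cells 25% of all tested miRNAs were called and 3 members were among them. miR-193b-5p was 7.04-fold and miR-193a-5p 5.26-fold higher in spheroids, and miR-365a-3p was 2.42-fold lower (FDRs 9.31e-09, 4.84e-07 and 5.39e-04). miR-193b-3p had a log2 fold change of 0.52 (FDR 0.0979). Between the cultures 6 of the 7 marker lists moved without overlap in shRELA cells and 3 in shRELB cells. The erythroid sum was higher and miR-126-3p lower in spheroids of both, though of the erythroid markers only miR-486-5p averaged higher. In shRELA spheroids the epithelial sum was also higher (4489 to 8000 against 2486 to 3449 CPM), although miR-141-3p and miR-429 averaged lower. The leukocyte and skeletal muscle sums were higher there too, and miR-122-5p was lower. In shRELB spheroids the smooth muscle and fibroblast sum was lower. The part of these markers was not tested.

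**Figure D2:**
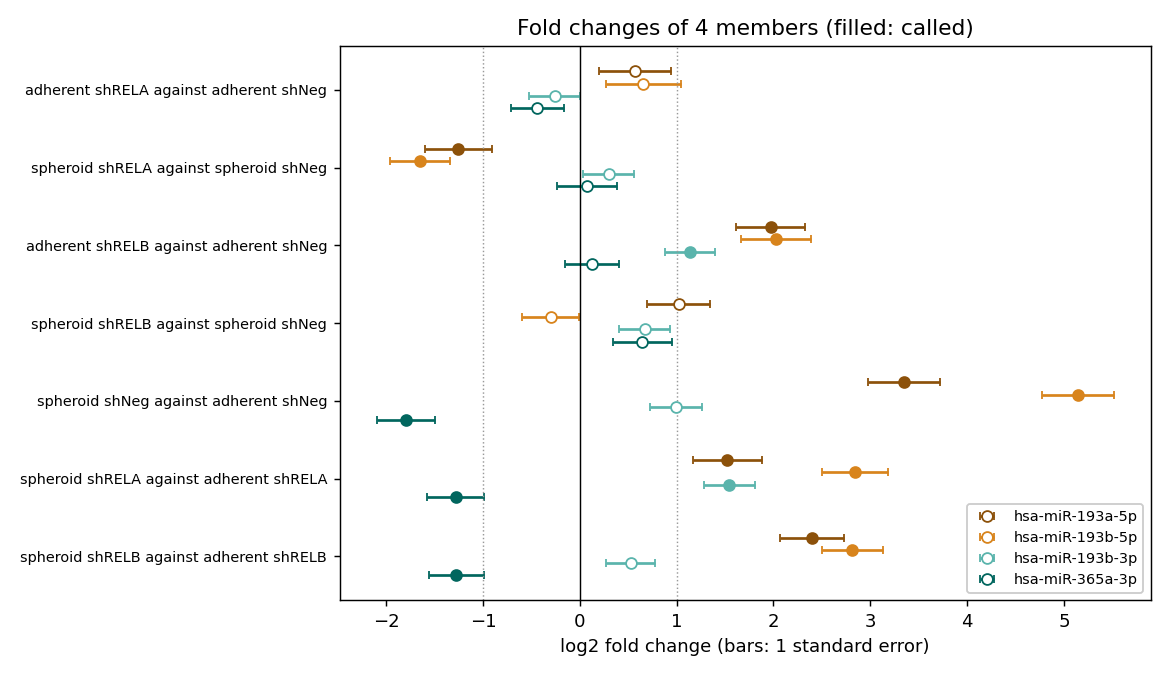
Log2 fold changes of the 4 tested members in 7 comparisons (points, with bars of 1 standard error), filled where the threshold of edgeR's quasi-likelihood test was passed, with dotted lines at 1 and -1. miR-193b-5p in spheroid against adherent shNeg cells lies farthest to the right, at 5.15, and miR-365a-3p lies left of 0 in all 3 culture comparisons.

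Whether the knockdowns acted differently in the 2 cultures was tested as a difference of log2 fold changes, spheroid minus adherent. The RELA effect on miR-193b-5p differed by -2.30 (SE 0.49, FDR 0.00131), the 1 member called, where 7.62% of all tested miRNAs were. The same difference for miR-193a-5p was -1.82 (FDR 0.0131), and it passed at -2.07 (FDR 4.74e-04) without spheroid shNeg replicate 1. With single libraries left out it ran from -2.07 to -1.55. The RELB effect on miR-193b-5p differed by -2.33 (SE 0.47, FDR 5.42e-04), again the 1 member called, where 8.51% were, and on miR-193a-5p by -0.95 (FDR 0.184). For miR-193b-3p these differences were 0.56 and -0.47 and for miR-365a-3p 0.52 and 0.52, none past the threshold. Both miR-193b-5p differences use the adherent shNeg libraries, which had 5 to 11 counts of it each.

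The shRELA and shRELB libraries were also compared with each other. In adherent cells 3 members were lower in shRELA, where 10.8% of all tested miRNAs were called. The log2 fold changes were -1.40 for miR-193a-5p, -1.38 for miR-193b-5p and -1.39 for miR-193b-3p (FDRs 0.00288, 0.00325 and 1.25e-04). The 2 5p calls were both lost on leaving out adherent shRELA replicate 1, 2 or 4 or adherent shRELB replicate 4 (FDR 0.0102 to 0.0218), and that of miR-193b-5p also without adherent shRELB replicate 2 (FDR 0.0114). In spheroids miR-193a-5p (-2.28, FDR 6.97e-06) and miR-193b-5p (-1.35, FDR 0.00156) were lower in shRELA, where 6.63% of all tested miRNAs were called. The miR-193b-5p call was lost without spheroid shRELA replicate 4 (FDR 0.0159) or spheroid shRELB replicate 4 (FDR 0.0101). Of the 7 marker lists, 6 moved without overlap between adherent shRELA and shRELB libraries and 2 between spheroid shRELA and shRELB libraries. The erythroid and the smooth muscle and fibroblast sums were lower in shRELA in both cultures. Within the erythroid sum only miR-486-5p averaged lower. miR-451a averaged higher in shRELA, at 3.86 against 0.555 CPM in adherent and 0.341 against 0 CPM in spheroid libraries. The part of these markers was not tested.

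The arms of 1 hairpin can be compared within a library, where scaling between libraries plays no part. miR-193b-5p made up 5.75% ± 1.37 (SD, n = 4) of the counts of both miR-193b arms in adherent shNeg cells, 10.0% ± 2.79 in adherent shRELA and 10.3% ± 1.91 in adherent shRELB. The adherent shNeg share rests on 33 counts of miR-193b-5p over the 4 libraries. In spheroids the share was 52.9% ± 6.24 in shNeg, with libraries from 45.7 to 59.5%. It was 23.6% ± 7.40 in spheroid shRELA and 36.0% ± 7.76 in spheroid shRELB cells. The share in spheroid shNeg thus lay above that of every other group, libraries not overlapping, and both spheroid knockdown groups lay between it and the adherent groups. As a mean log2 ratio of 3p to 5p with 0.5 counts added to each, spheroid minus adherent shNeg was -4.15, spheroid shRELA minus shNeg was 1.91 and spheroid shRELB minus shNeg was 1.02. Of the 7 comparisons of this ratio, 6 had an exact permutation p of 0.0286 (two-sided), the smallest that 4 against 4 libraries can give, and adherent shRELA minus shNeg (-0.82) had an exact p of 0.0857. Adjusted over all 28 ratio tests, this p became 0.05, which is not below the threshold of 0.05. Of those tests 14 involve miR-193a-3p and are set by the added 0.5 counts, and adjusted over the other 14, a choice made after seeing the data, it became 0.04, with 10 of the 14 below 0.05. Without spheroid shNeg replicate 1 the smallest exact permutation p for its comparisons is 0.0571, and 0 of the 14 were below 0.05 after adjustment (smallest adjusted exact permutation p 0.0667), against 10 with all libraries.

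The same shift was computed for other hairpins. Subtracting the log2 fold change of the 3p arm from that of the 5p arm gave 4.16 for miR-193b in spheroid against adherent shNeg cells. Of 214 hairpin names that had 5p and 3p values, miR-193b included, 23 had a difference at least as large, and the median was 0.52. For RELA knockdown in spheroids the miR-193b value was -1.95, and 25 of 214 were at or under it. For RELB knockdown in spheroids it was -0.97, with 51 at or under it. In spheroid against adherent cells it was 1.30 in shRELA, with 80 at or above it, and 2.29 in shRELB, with 37 at or above it. In adherent cells it was 0.91 for RELA knockdown, with 11 at or above it, and 0.89 for RELB knockdown, with 40 at or above it.

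miR-193b-3p and miR-365a-3p come from the same host RNA, and their ratio was compared in the same way. The mean log2 ratio of miR-193b-3p to miR-365a-3p was -1.74 in adherent shNeg, -1.62 in adherent shRELA and -0.74 in adherent shRELB cells. It was 1.19, 1.23 and 1.07 in spheroid shNeg, shRELA and shRELB cells. Each spheroid group exceeded its adherent partner, by 2.93 in shNeg, 2.85 in shRELA and 1.81 in shRELB cells, and adherent shRELB exceeded shNeg by 1.00, each with an exact permutation p of 0.0286. The 3 other knockdown comparisons differed by 0.12, 0.04 and -0.13, with exact permutation p of 0.914, 1.00 and 0.83. The 2 other ratios computed, of miR-193a-3p and of miR-193b-3p to miR-193a-3p, are set by the added 0.5 counts and are not given. miR-365a-3p also contains any reads of MIR365B on chromosome 17.

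**Figure D3:**
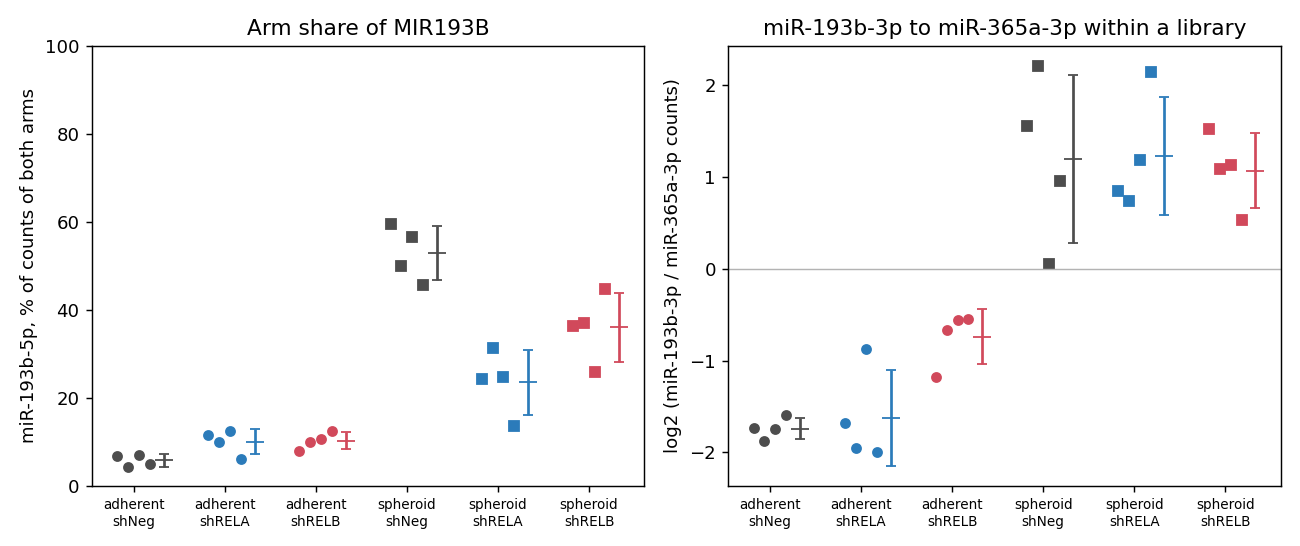
Left, the share of miR-193b-5p in the counts of both miR-193b arms (%), and right, the log2 ratio of miR-193b-3p to miR-365a-3p counts, for each of the 24 libraries in 6 groups of 4, with the group mean and SD beside the points. The share is highest in spheroid shNeg libraries (45.7 to 59.5%), and the ratio is above 0 in every spheroid library and below 0 in every adherent one.

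The 5p arms of the miR-365 hairpins differ in sequence and can be told apart, but few counts were read. miR-365a-5p had 36 counts in 13 libraries and miR-365b-5p 57 counts in 18 libraries, against 6002 for the shared 3p sequence. miR-365b-5p had at most 0.533 CPM in an adherent library, so it passed the filter on low values only through spheroid libraries, and no test of it between cultures is given. It had 5, 1 and 6 counts over the 4 libraries of adherent shNeg, shRELA and shRELB cells and 5, 9 and 31 counts over those of the spheroid groups in the same order. Reads of both miR-365 hairpins were therefore present.

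The members differed in base composition, and the change between cultures moved with it over all miRNAs. For the 795 tested miRNAs with a RefSeq sequence, the median log2 fold change from adherent to spheroid shNeg was -2.11 below 40% GC, -1.36 from 40 to under 50%, -0.01 from 50 to under 60% and 1.67 at 60% or more. Spearman's rho between GC content and log2 fold change was 0.56 for that comparison, 0.46 in shRELA and 0.42 in shRELB cells, across miRNAs, which share libraries and are not independent replicates. It was 0.33 for RELB knockdown in adherent cells, -0.35 for RELA and -0.24 for RELB knockdown in spheroids. miR-365a-3p, at 31.8% GC, had a change of -1.80, inside the middle 50% of its class (-3.09 to -0.94). miR-193b-5p and miR-193a-5p, at 59.1% GC, had changes of 5.15 and 3.35, above the middle 50% of theirs (-1.20 to 1.85), while miR-193b-3p with the same GC content was inside it. In shRELA cells miR-193a-5p (1.52) was inside the middle 50% of its class (-0.61 to 1.76). GC content and the members' changes thus moved together in part, and its part in them was not tested.

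**Figure D4:**
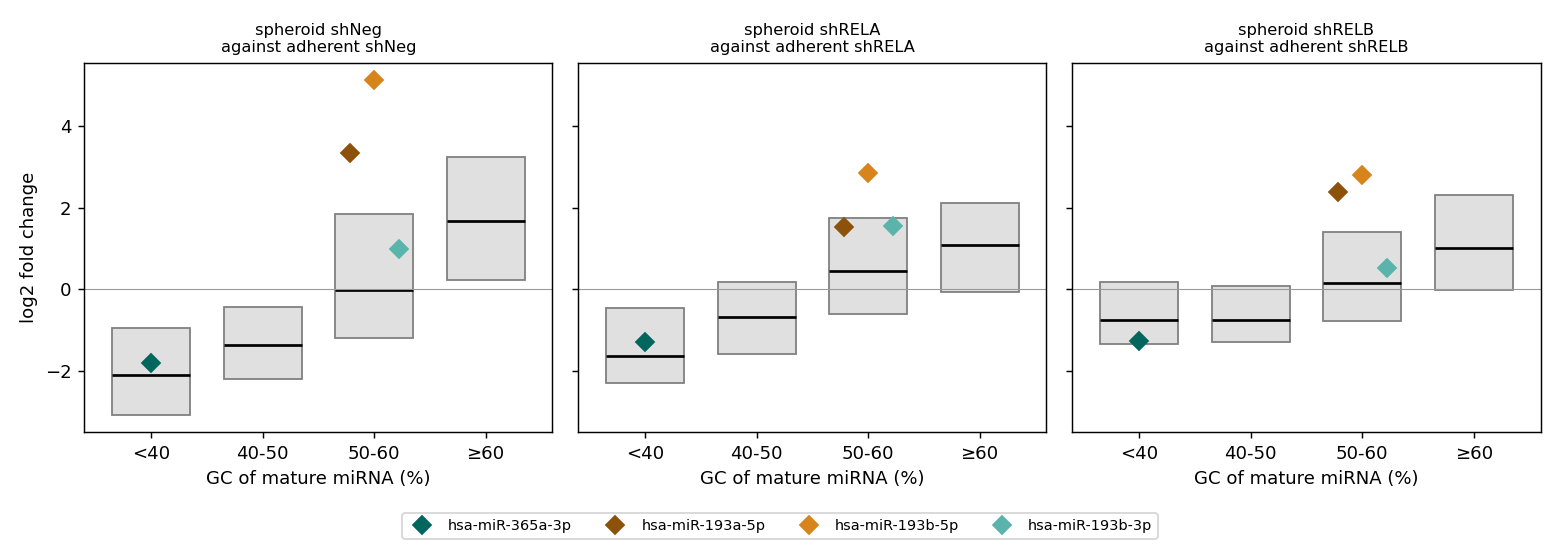
Log2 fold change of spheroid against adherent culture in shNeg, shRELA and shRELB cells by GC class of the mature miRNA, where boxes span the middle 50% of the tested miRNAs with a line at the median and diamonds are the 4 members. miR-365a-3p lies inside the box of its class in each panel, and miR-193b-5p lies above its box in each, while miR-193a-5p lies above its box in shNeg and shRELB cells and inside it in shRELA cells.

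Over the 24 libraries, levels on the log2(CPM + 1) scale were correlated between members as a description, with all points sharing the 6 groups. The 2 5p arms followed each other (Pearson r 0.91, 0.93 within the 12 adherent and 0.71 within the 12 spheroid libraries). miR-193b-5p and miR-193b-3p had r 0.86 in adherent and -0.08 in spheroid libraries. miR-193b-3p and miR-365a-3p had r -0.39 overall but 0.62 in adherent and 0.37 in spheroid libraries. Among 334 other miRNAs averaging 10 CPM or more, the pattern most like miR-193b-5p was that of miR-2110 (r 0.99), then miR-3679-5p (0.98) and miR-423-5p (0.97), and that most like miR-193a-5p was miR-2110 (0.92), then miR-185-3p (0.92) and miR-193b-5p. These neighbours had a GC content of 56.5 to 63.6%. Within the spheroid libraries r was 0.80 to 0.93 for those of miR-193b-5p and 0.71 to 0.81 for those of miR-193a-5p. The closest to miR-193b-3p were miR-1293 (0.83), miR-146b-3p (0.83) and miR-4683 (0.81), which fell to 0.12 to 0.46 within the spheroid libraries. Their GC content was 54.5 to 60.9%, which overlaps that of the 5p neighbours. GC content over all 334 candidates was not computed. Beside miR-365b-3p, which is the same reads, the closest to miR-365a-3p were miR-361-5p (0.94) and miR-23a-3p (0.93). Within the adherent libraries these had r 0.50 and 0.94, and within the spheroid libraries 0.84 and 0.76.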

How the data were processed

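Small RNA of OV90 cells was read in 24 libraries, 6 groups of 4 replicates, grouped by the labels. Per the study's methods, libraries were made with the QIAseq miRNA Library Kit, adapters were trimmed with Cutadapt and reads were assigned to miRBase miRNAs on GRCh38 with miRDeep2. The authors deposited 1 estimated count per mature miRNA and library, not scaled for depth, in a table titled as CPM. They were read as counts, being mostly whole with unequal library totals. Whether molecular identifiers were collapsed is not given in the sources used here, so intervals cover counting error only. Values that were not whole (3.04% of non-zero values, on 84 miRNAs) were rounded.

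Those reaching 1 CPM in 4 or more libraries were kept (905 of 2656). After TMM scaling, the 6 groups alone entered the model of edgeR's quasi-likelihood test (edgeR 4.0.16, R 4.3.3). Benjamini-Hochberg adjustment ran over all miRNAs tested, and 11 comparisons were made. Ratios within a library were tested by 2-sided exact permutation tests (scipy 1.17.1). The alternatives were other filters, median-ratio size factors, library totals, limma 3.58.1 on log2(CPM + 1), DESeq2 1.42.0, a replicate block, fits of only the groups compared, an FDR of 0.05 and leaving out each library. The edgeR, limma and DESeq2 fits were tested on simulated data for spheroid shRELB against shNeg. The ratio tests, the differences between cultures and the sequence steps were not tested in that way.

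The miRNAs named were the 5 members, the other arms of their hairpins, 11 other miRNAs with reported CCND1 targeting, 7 marker lists and, for each tested member, the 3 other miRNAs averaging 10 CPM or more and the highest Pearson r. The members and lists were chosen with earlier results of these data known. Sequences are from RefSeq (GRCh38.p14) and gene models from GENCODE.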

Additional observations from a re-analysis of the deposited data

Results flagged for a closer look

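In adherent shRELB cells replicate 4 had the highest miR-193a-5p level, 11.9 CPM, and stood apart from the nearest library at 10.3 CPM by more than the range of a group of 4 allows (Dixon's ratio 0.871, past its 95% critical value). For miR-193a-3p the 2 libraries with any count were marked, adherent shNeg replicate 2 at 0.533 CPM and adherent shRELA replicate 4 at 0.165 CPM, which are 2 counts and 1 count. Of 30 groups listed for the check, those with 0 counts of miR-193a-3p in every library could not be marked. A lone count among zeros always gives a ratio of 1, so the 2 miR-193a-3p marks were set in advance. For the remaining groups chance would mark about 1 in 20.

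The effect of each knockdown on miR-193b-5p differed between spheroid and adherent culture by a test of the difference in edgeR's quasi-likelihood fit, by -2.30 on the log2 scale for RELA knockdown and by -2.33 for RELB knockdown.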

How the results depend on the processing

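Over the 11 comparisons, 22 member calls were made, and 21 to 24 under the 9 alternatives other than leaving out libraries. In single comparisons 3.76 to 42.2% of all tested miRNAs were called. The 11 comparisons share the 6 groups, so the same differences enter this total more than once. In spheroid shRELA against shNeg the called members fell from 2 to 1 with limma (miR-193a-5p -1.07, FDR 0.0149), with a replicate block (-1.26, FDR 0.0112) and with only the groups compared (-1.20, FDR 0.0782). In spheroid shRELB against shNeg they rose from 0 to 1 at an FDR of 0.05. For the RELA difference between cultures they rose from 1 to 2 with median-ratio factors, library totals, DESeq2, an FDR of 0.05 or a filter at a mean of 10 CPM, adding miR-193a-5p (-2.02 to -2.17, or -1.82 at the looser FDR). miR-193b-3p in spheroid against adherent shNeg passed the threshold with the filter at a mean of 10 CPM (1.36), median-ratio factors (1.12), library totals (1.44), DESeq2 (1.12) and only the groups compared (1.27). In spheroid shRELA against shNeg the log2 fold change of miR-365a-3p (0.08) reversed to -0.12 with that filter, -0.0756 with median-ratio factors, -0.0803 with DESeq2 and -0.33 with library totals, and ran from -0.21 to 0.44 with single libraries left out. That of miR-193b-3p (0.30) reversed to -0.12 with library totals. Against TMM, library totals moved the median of all miRNAs by up to 0.43 and median-ratio factors by up to -0.19. The cause was not tested. Of the ratio tests, 0 were below 0.05 after adjustment over all 28 and 10 over the 14 without miR-193a-3p, an alternative chosen after seeing the data.

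With each library left out in turn, member calls ran from 1 to 2 in spheroid shRELA against shNeg, 0 to 1 in spheroid shRELB against shNeg, 1 to 3 in adherent and 1 to 2 in spheroid shRELA against shRELB, and 1 to 2 for the RELA difference between cultures. Same-numbered libraries were not seen to be paired in these counts, which does not tell how the cultures were run. The 28 correlations of same-numbered libraries ran from -0.245 to 0.136, 1 of them over 0.1. Each library was matched to the libraries of other groups, 56 matches in which a library enters more than once. In 6 of the 56 the best match had its own number. With the replicate block 21 member calls were made instead of 22.

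Counts over all miRNAs moved by over 1.5 times in some fits. The filter at a mean of 10 CPM gave 204, 160 and 132 calls between cultures in shNeg, shRELA and shRELB cells, instead of 382, 295 and 226, with fewer miRNAs tested. Fitting only the groups compared gave 54 instead of 34 for RELA and 117 instead of 64 for RELB knockdown in adherent cells, 66 instead of 137 and 41 instead of 121 in spheroids, and 150 instead of 98 for adherent shRELA against shRELB. An FDR of 0.05 gave 153 for that comparison, 107 instead of 60 in spheroids, and 109 instead of 69 and 129 instead of 77 for the differences between cultures. Without spheroid shNeg replicate 1, spheroid shRELA against shRELB gave 98. Depth was lowest in spheroid shNeg libraries, where 3 counts were worth 1.54 to 2.29 CPM.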

Other observations

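Cyclin D1 is also a reported target of other miRNAs, and 11 of them, all tested, were read beside the members. In spheroid against adherent shNeg cells 8 of the 11 fell and 1 rose (edgeR's quasi-likelihood test, FDR below 0.01 and fold change above 2), with a list median of -1.69 on the log2 scale against -0.26 for all miRNAs tested. Over all 905 miRNAs 42.2% were called in that comparison, 189 down and 193 up. miR-16-5p (-2.64) and miR-17-5p (-2.73), from clusters known for cell cycle control, fell, and let-7b-5p, a let-7 family member, rose by 1.71. In shRELA cells 5 fell and 0 rose between the cultures, and in shRELB cells 4 fell and 0 rose, where 32.6% and 25% of all tested miRNAs were called.

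RELA knockdown lowered let-7b-5p in adherent cells (-2.08), the 1 of 11 called there, where 3.76% of all tested miRNAs were called. RELB knockdown in adherent cells lowered let-7b-5p (-2.62) and raised miR-34a-5p (1.49), a miRNA induced by p53, where 7.07% were called. In spheroids RELA knockdown called 3 up and 1 down, where 15.1% of all tested miRNAs were called, with miR-34a-5p at 1.40, miR-17-5p at 1.78, miR-16-5p at 1.24 and let-7b-5p at -2.82. RELB knockdown in spheroids called 4 up and 1 down, where 13.4% of all tested miRNAs were called, with miR-34a-5p at 1.67, miR-17-5p at 1.35, miR-16-5p at 1.06, miR-503-5p at 1.04 and let-7b-5p at -3.95. The list medians in these 4 comparisons were 0.02, -0.29, 0.62 and 0.98, against 0.09, 0.04, 0.09 and 0.16 for all miRNAs tested. In adherent shRELA against shRELB 1 of the 11 was higher (10.8% of all tested miRNAs called), and in spheroids 2 were higher and 1 lower (6.63% called). The RELA effect differed between cultures for 3 of the 11 (7.62% called) and the RELB effect for 3 (8.51% called).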
